A study of Mus musculus with 109 samples.

Results

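Cycling cells from a granule cell progenitor preparation of the mouse cerebellum were divided by the G2/M transcripts Ccnb1 and Cdc20. One class carried either transcript and the other carried neither. No lineage gene entered the rule, and some of the cells carried glial genes, as given below. Of 109 single cells, 106 had at least 1000000 counts and at most 10000 detected genes, and 30 of these had Mki67, a marker of dividing cells, at 100 CPM or more, where CPM is a count scaled to a library total of 1000000. A cell was called a G2/M cell where Ccnb1 (cyclin B1) or Cdc20 (an activator of the anaphase-promoting complex) reached 50 CPM, and an earlier-phase cell where both were below 10 CPM. The members were thus chosen by the measured levels of these 3 genes. The rule gave 13 G2/M cells and 10 earlier-phase cells and left out 7 cells between them, so 23 of 109 cells entered the comparison. Ccnb1, Cdc20 and Mki67 chose the cells and are not results.

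The study, on Notch signaling between progenitors, took cerebella of C57BL/6 pups at postnatal day 7, enriched small cells on a Percoll gradient and captured them on a microfluidic chip, with each cell sequenced as a sample of its own. The labels name no transgene or treatment, and both classes came from the same preparations. The cells fall into 6 library groups of the labels, which held 2, 2, 3, 2, 3 and 1 G2/M cells and 1, 2, 4, 0, 1 and 2 earlier-phase cells. Nothing says that a library group is a separate animal. The p-values below measure the spread between sums or means of 1 to 4 cells per library group. That spread holds differences between cells as well as between library groups, and may be technical.

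Granule cell progenitors divide in the outer external granule layer under Sonic hedgehog and then leave the cycle to become granule neurons. In a dividing cell the replication genes are transcribed around the start of S phase under E2F factors, whereas the genes of the spindle, kinetochore and cleavage furrow are transcribed late, in G2 and mitosis, under the MuvB complex with B-Myb and Foxm1. Cyclin B1 with Cdk1 drives entry into mitosis, and Cdc20 directs the anaphase-promoting complex, which destroys cyclin B1 at anaphase.

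The classes were well apart in the genes that made them. In the 10 earlier-phase cells Ccnb1 and Cdc20 had 0 or 1 count each, at most 0.423 CPM. Among the G2/M cells 6 had both genes at 50 CPM, 5 had Ccnb1 alone and 2 had Cdc20 alone. The cell nearest to the threshold from above held Ccnb1 at 56.3 CPM, and the cells left out reached 30.9 CPM of Ccnb1 and 39.6 CPM of Cdc20. Mki67 was at 132 CPM or more in the cycling cells and at 21.3 CPM or less in the other 76.

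**Figure D1:**
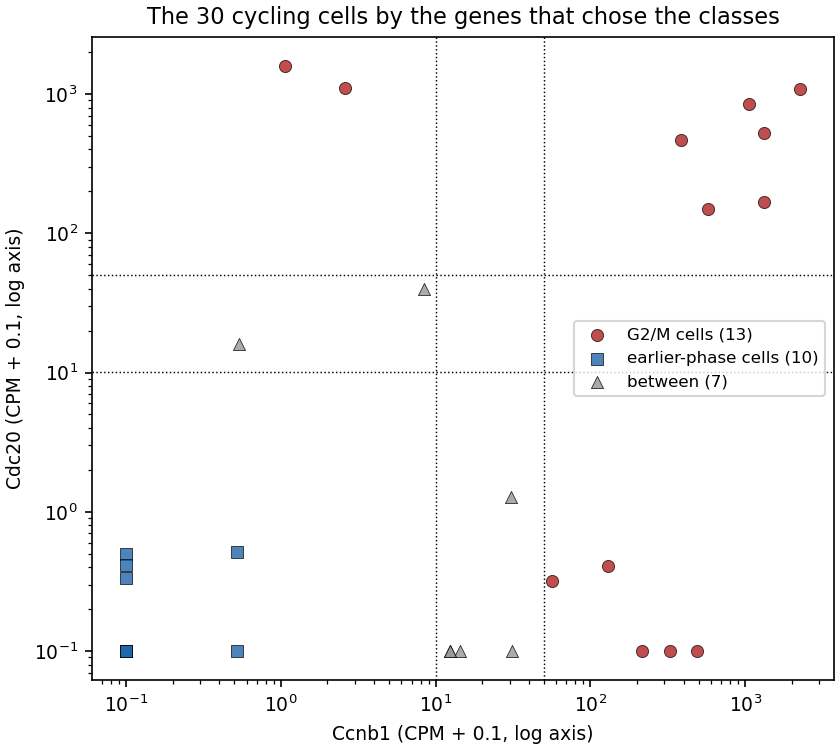
Ccnb1 against Cdc20 in the 30 cycling cells, both in CPM with 0.1 added on log axes, with dotted lines at the thresholds of 10 and 50 CPM. The 10 earlier-phase cells (squares) lie at 0 or 1 count of both genes, and the 13 G2/M cells (circles) form a group with both genes, a group with Ccnb1 alone and a group of 2 cells with Cdc20 alone.

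G2/M cells held more expressed genes. They had 4239 to 6420 detected genes per cell, against 3926 to 5093 in earlier-phase cells, a 1.16-fold difference of the library group means (exact two-sided permutation test, p = 0.0173, adjusted p = 0.0462 over 4 measures, 6 against 5 library groups). In the comparison of depth and detected genes, leaving out library group 1 or library group 5 gave an exact permutation p of 0.0635 for detected genes. Genes at 10 CPM or more numbered 1865 to 3777 in G2/M cells and 1441 to 2832 in earlier-phase cells, a 1.36-fold difference (exact permutation p = 0.0346, adjusted p = 0.0462). Total counts were 1998300 to 6787358 and 1562597 to 5009658 and were not shown to differ (exact permutation p = 0.273), and with every cell thinned to 1562597 counts the difference in detected genes was 1.16-fold (exact permutation p = 0.0303, adjusted p = 0.0462). The larger number of expressed genes moves with every share of cells given below, and its part in them was not tested.

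Genes of other cell types were found in some of these cells. Astroglial genes summed to 2.06 to 24187 CPM in G2/M cells (median 256) and to 0.599 to 4349 CPM in earlier-phase cells (median 867), and their mean was lower in G2/M cells in library groups 1, 2, 3 and 6 and higher in library group 5. Some results are also given below without the cells that carried many glial genes. Beyond that, the part of astroglial genes in the results was not tested. A G2/M cell of library group 5 had 10 of 12 astroglial genes at 50 CPM (24187 CPM in sum), and a G2/M cell of library group 3, the cell nearest to the Ccnb1 threshold, had 5 astroglial and 4 of 8 oligodendrocyte lineage genes at that level. An earlier-phase cell of library group 3 had 5 oligodendrocyte lineage genes (17937 CPM), and a G2/M cell of library group 2 had 2 of them (4251 CPM). Microglial, vascular, Purkinje and inhibitory neuron genes summed to at most 105 CPM in any G2/M or earlier-phase cell. Mitochondrial transcripts made up 17.9% of the counts of 1 G2/M cell and at most 4.44% of the other 22.

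The levels of each gene were first compared between the 6 sums of G2/M cells and the 5 sums of earlier-phase cells per library group with edgeR's quasi-likelihood test. Of 4288 genes tested, 0 were higher (0%) and 0 were lower (0%) at an adjusted p under 0.01, and the lowest adjusted p was 0.560. The spread between sums was wide, with a biological coefficient of variation of 209%, and 3 of the 11 sums were of 1 cell. At an unadjusted p under 0.05 there were 178 higher genes (4.15% of those tested) and 107 lower genes (2.5%), and with DESeq2's size factors in edgeR these numbers were 157 and 220. With a covariate for detected genes they were 91 and 177, and positive log2 differences then numbered 12 of 19 for spindle genes and 16 of 26 for kinetochore genes, which were 18 and 23 without it. DESeq2 on the same sums called 316 genes higher and 104 lower. No gene below is therefore called changed by the main test, and the levels are given as a description, relative to a median log2 difference over all genes of 0.09.

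Because most genes were on in some cells and off in others, the share of cells with a gene at 10 CPM or more was also counted, a measure taken up after the test had been seen. Over the 4045 genes at that level in at least 5 of the 23 cells, the median share was 10.8 percentage points higher in G2/M cells, and 92 genes (2.27%) were higher by at least 50 points and 3 genes (0.0742%) were lower by as much. Of the 23 cells, 3 had at least 5 astroglial or at least 3 oligodendrocyte lineage genes at 50 CPM. This cut kept earlier-phase cells with up to 4349 CPM of astroglial genes. Without the 3 cells the genes higher and lower by 50 points numbered 105 and 13. They moved with single library groups, to 144 and 6 without library group 1, 183 and 12 without library group 2, 233 and 31 without library group 3 and 182 and 9 without library group 6. Without library groups 4 and 5 in turn they were 98 and 7 and 85 and 6. With both Ccnb1 and Cdc20 required they were 297 and 27. Genes passed this limit of 5 cells more easily through the larger class, so the counts over all listed genes at 10 CPM in 1 cell or more are given too. Over the 10333 genes so defined, 63.1% had a higher share in G2/M cells and 36.3% a lower share.

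The genes of the mitotic spindle separated the classes. Each of the 27 listed genes, all at 10 CPM in at least 1 cell, had a higher share in G2/M cells, with a median difference of 39.2 points beside 7.69 points for all genes. Of the 24 in at least 5 cells, 8 were higher by 50 points. Summed over the list, G2/M cells held 2182 to 20276 CPM with a median of 10347, and earlier-phase cells 45.4 to 6037 with a median of 2816. Thus 9 of 13 G2/M cells lay above every earlier-phase cell, and the others overlapped with them. In edgeR, 18 of 19 tested genes had a positive log2 difference, with a median of 3.01, and 6 had an unadjusted p under 0.05, all higher. Relative to all genes this median was 2.92, and 4.74 without library group 3.

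Kif22, a chromokinesin that pushes chromosome arms toward the spindle equator, reached 10 CPM in 12 of 13 G2/M cells (92.3%, Wilson 95% interval 66.7 to 98.6) and in 1 of 10 earlier-phase cells (10%, 1.79 to 40.4). Its level was 0 to 2447 CPM in G2/M cells, with a median of 235, and at most 111 CPM in earlier-phase cells, with a median of 0.0998. The library group sums were 1670, 151, 701, 715, 109 and 0 CPM in G2/M cells and 0.40, 0, 22.5, 0.20 and 0 CPM in earlier-phase cells. All G2/M sums but that of library group 6, which is a single cell, lay above the earlier-phase sums, with a log2 difference of 6.93 ± 2.67 (SE) and an adjusted p of 0.680 in edgeR.

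Kif23, the kinesin of the central spindle, was at 10 CPM in 10 and 2 cells of the classes, with sums of 2262, 1578, 84.1, 590, 1045 and 0.49 CPM against 0.80, 6.55, 50.4, 0.60 and 0 CPM (log2 difference 6.31 ± 2.28, edgeR adjusted p = 0.604). Tacc3, which stabilizes microtubules at the pole, was at 10 CPM in 11 and 2 cells, and Ckap2 in 10 and 1. Kif11, the motor that separates the poles, was present in 10 and 3 cells. Aspm, a pole protein mutated in microcephaly, was present in 7 and 0 cells, and 0 of 10 cells allows a share of up to 30%. Arl6ip1, the listed gene with the highest mean level, was in all 13 G2/M cells but also in 5 earlier-phase cells and in 56.6% of the cells that were not cycling. Prc1, which bundles the midzone microtubules, was in 8 and 4 cells, with sums of 1298, 0.38, 1684, 1240, 1534 and 0 CPM against 1.20, 131, 98.2, 0.40 and 203 CPM, so that the sums of library groups 2 and 6 were lower in G2/M cells and the others higher.

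Kinetochore and centromere genes showed a similar separation. Of 34 listed genes in at least 1 cell, 31 had a higher share in G2/M cells and 3 a lower one, with a median difference of 33.8 points. The summed level was 3505 to 24811 CPM in G2/M cells (median 11857) and 380 to 8147 CPM in earlier-phase cells (median 3734), with 8 of 13 G2/M cells above every earlier-phase cell. Of 26 genes tested in edgeR, 23 had a positive log2 difference, with a median of 2.77, and 5 had an unadjusted p under 0.05, all higher.

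Cenpa, the histone H3 variant that marks the centromere (chr5:30666777-30674830, GRCm38), stood furthest apart. It reached 10 CPM in 11 of 13 G2/M cells (84.6%, interval 57.8 to 95.7) and had no count in any of the 10 earlier-phase cells, in 32007242 counts. The G2/M sums were 331, 233, 304, 24.5, 419 and 0.49 CPM. Each lay above the earlier-phase sums, which were 0, and that of library group 6 was 1 cell near 0. With the 3 counts that 0 allows over the class the pooled level was at least 2639-fold higher, a bound that covers the counting of reads only, not the spread between cells. The adjusted p was 0.560 in edgeR.

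Cenpf, a large protein of the outer kinetochore, was in 12 and 3 cells, and its motor partner Cenpe was in 10 and 1. Cdca8, a member of the chromosomal passenger complex with Aurkb and Birc5, was in 9 and 1 cells, and Birc5 in 9 and 2. Hjurp, the chaperone that deposits Cenpa, was in 11 and 5 cells. Cenph, a protein of the inner kinetochore, went the other way, with 1 G2/M cell and 5 earlier-phase cells.

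Cytokinesis genes had the widest gap. Each of the 12 listed genes had a higher share in G2/M cells, by a median of 45 points. The summed level was 531 to 8490 CPM in G2/M cells (median 4472) and 3.08 to 2704 CPM in earlier-phase cells (median 208). Only 1 earlier-phase cell exceeded 719 CPM, and 8 of 10 lay below every G2/M cell. The mean was higher in G2/M cells in each of the 5 library groups that held both classes, from 330 to 6746 CPM higher. In edgeR all 10 tested genes had a positive log2 difference, with a median of 4.65, and 4 had an unadjusted p under 0.05, all higher. Relative to all genes this median was 4.56, and 8.30 without library group 3.

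Anln, which links actin and septins in the cleavage furrow, was at 10 CPM in 9 of 13 G2/M cells (69.2%, interval 42.4 to 87.3) and in 0 of 10 earlier-phase cells. Its sums were 445, 1462, 174, 88.3, 1321 and 0 CPM in G2/M cells and 0.40, 6.31, 0.16, 0 and 0.12 CPM in earlier-phase cells (log2 difference 8.63 ± 2.81, edgeR adjusted p = 0.560). The G2/M cell of library group 6 had no count of Anln, and the earlier-phase cells of its group stood at 0.12 CPM.

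Cit, the citron kinase of the midbody, was in 12 and 1 cells. Racgap1 and Ect2, which act together at the cell equator, were in 9 and 2 and in 9 and 1 cells. Cep55, which recruits the abscission machinery, was at 10 CPM in 6 G2/M cells and had no count in the earlier-phase cells.

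**Figure D2:**
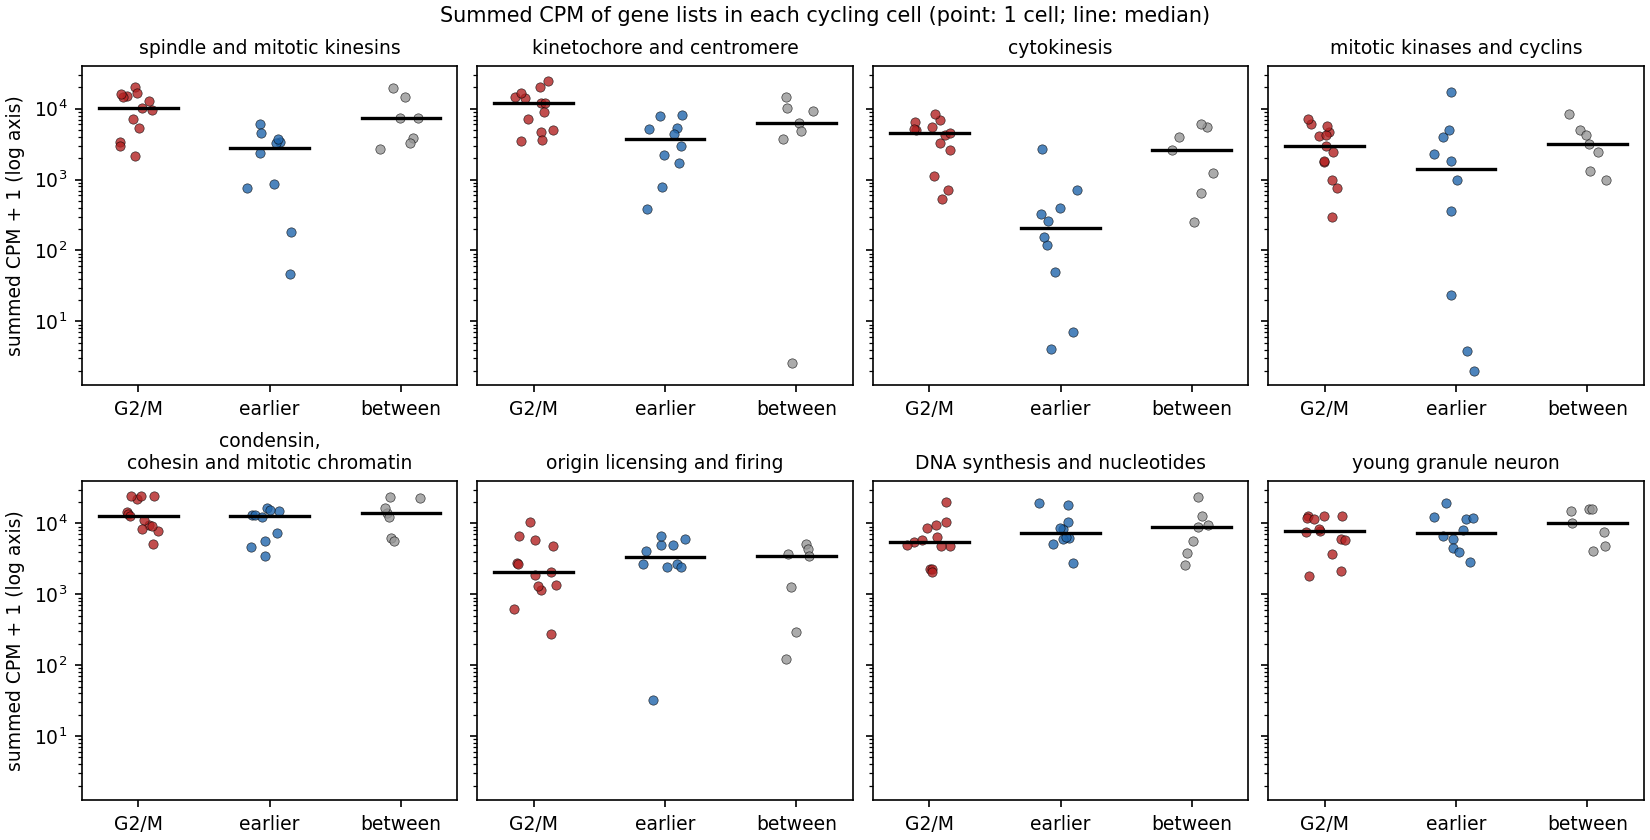
Summed CPM of 8 gene lists, with 1 added on a log axis, in each of the 13 G2/M, 10 earlier-phase and 7 in-between cells; each point is a cell and each line a median. The cytokinesis medians are 4472 and 208 CPM in G2/M and earlier-phase cells, whereas those for condensin, cohesin and mitotic chromatin are 12858 and 12812 CPM.

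Mitotic kinases and cyclins were less uniform. Of 21 genes, 20 had a higher share in G2/M cells, by a median of 30.8 points, yet no G2/M cell exceeded every earlier-phase cell in summed level, at 300 to 7118 CPM (median 2934) in G2/M cells and 0.998 to 17211 CPM (median 1414) in earlier-phase cells. The list sum was higher in G2/M cells in 3 of 5 library groups. Ccnb2, the second B-type cyclin, was in 7 G2/M cells and 0 earlier-phase cells, with 31069 counts in the 13 cells and 14 in the 10. Its sums were 1021, 49.3, 1432, 58.3, 178 and 0 CPM against 1.20, 0.49, 0.74, 0 and 0 CPM (log2 difference 9.56 ± 3.0, edgeR adjusted p = 0.560). Aurkb, the kinase of the passenger complex, was in 7 and 1 cells, and Aurka, the kinase of the spindle pole, in 5 and 0.

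Cdk1, the partner of cyclin B, was in 9 and 3 cells and in 1.32% of cells that were not cycling, so that it was found in earlier-phase cells as well. Ccna2, the cyclin of S phase and G2, was in 10 and 2 cells, and Cks2 in 11 and 2. Plk1, which acts from mitotic entry to cytokinesis, was in only 4 and 1. Ttk and Bub1b, kinases of the spindle checkpoint, were in 5 and 2 cells each. They made up most of the highest earlier-phase sum, in a cell of library group 3 with 6797 CPM of Ttk and 5837 CPM of Bub1b. That cell had 0.423 CPM of Ccnb1, or 1 count, and no count of Cdc20, so the label of an earlier phase goes against its checkpoint genes. Labels were uncertain for other cells too. The G2/M cell of library group 6 held 10334 CPM of DNA synthesis genes. Its spindle genes, at 2182 CPM, lay below the earlier-phase median of 2816 CPM. The earlier-phase cell of library group 5 held 31.7 CPM of licensing and 2771 CPM of DNA synthesis genes, the lowest of its class in both.

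Of 20 regulators and subunits of the anaphase-promoting complex, 18 had a higher share in G2/M cells, by a median of 11.9 points beside 7.69 points for all genes. Over the 15 in at least 5 cells the median was 10.8 points, the same as for all genes under that limit. In edgeR 7 of 13 log2 differences were positive, with a median of 0.05 beside 0.09 for all genes. Ube2c, the ubiquitin carrier of the complex, differed most, in 11 and 2 cells, with sums of 530, 420, 696, 756, 394 and 0 CPM against 0.40, 22.3, 30.6, 0.20 and 0 CPM (log2 difference 5.40 ± 2.48, edgeR adjusted p = 0.707). Among core subunits Anapc4 was in 8 and 3 cells, Anapc7 in 5 and 1, Anapc5 in 5 and 3, Cdc26 in 4 and 2 and Cdc23 in 3 and 3. The summed level was 1018 to 9732 CPM in G2/M cells and 31.1 to 6982 CPM in earlier-phase cells, and the classes overlapped.

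**Figure D3:**
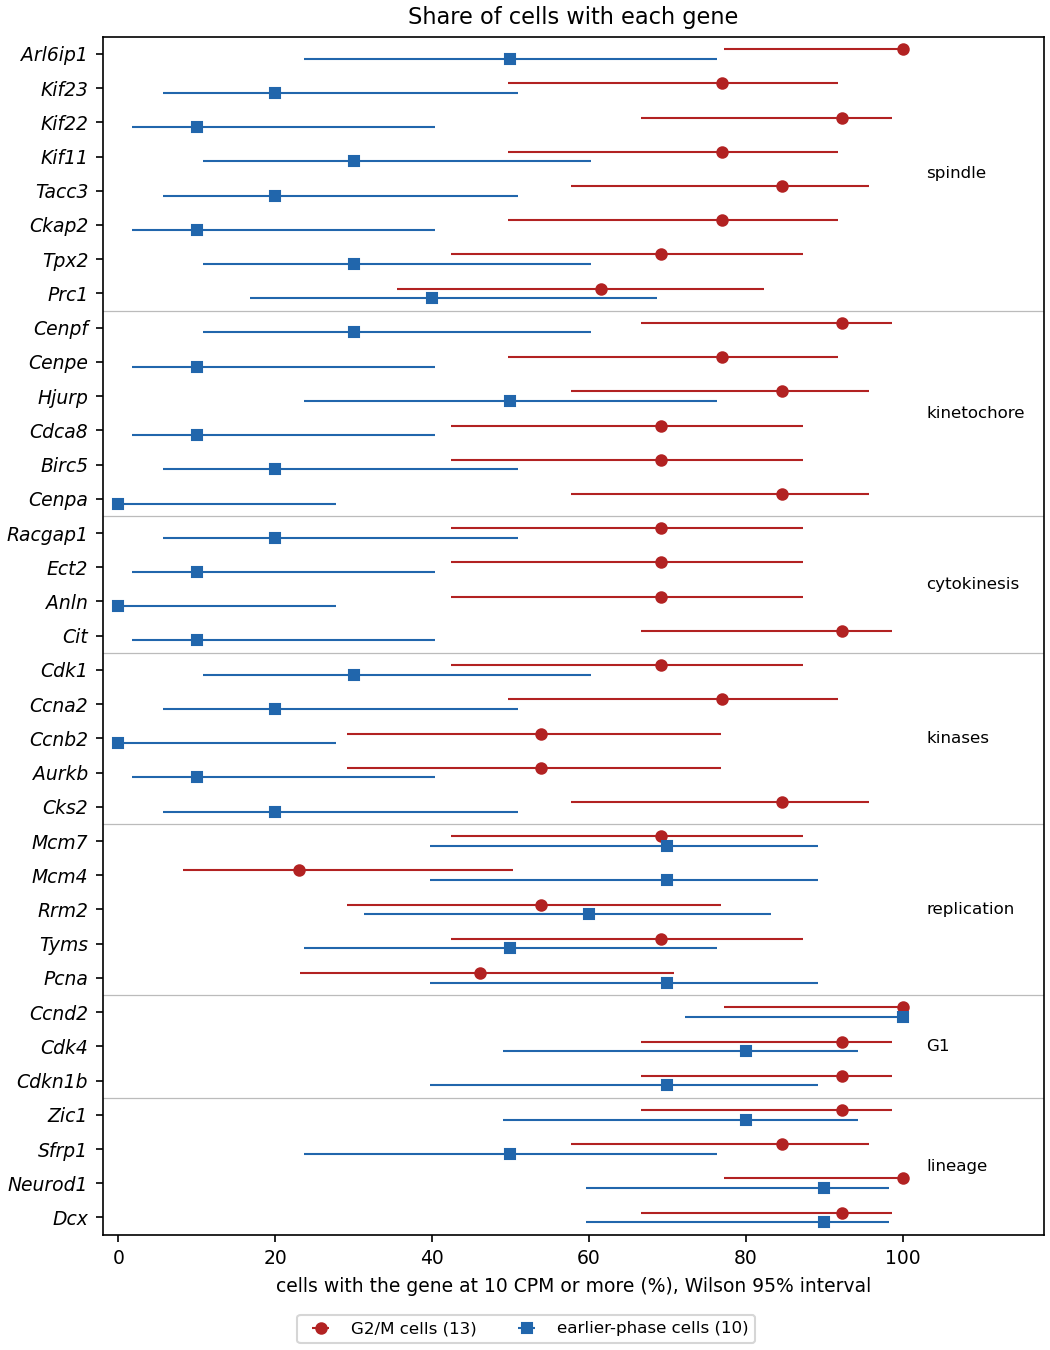
Percentage of the 13 G2/M cells (circles) and the 10 earlier-phase cells (squares) with each named gene at 10 CPM or more; bars are Wilson 95% intervals over cells, which share library groups. Cenpa and Anln stand at 84.6% and 69.2% against 0%, whereas Ccnd2 is at 100% in both classes and Mcm4 at 23.1% against 70%.

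The promoters of these genes were examined because many late cell cycle genes carry a cell cycle genes homology region (CHR). It was searched as TTTGAA and as TTTAAA on both strands. The table of RefSeq promoters (GRCm38.p6) held 91 of the 109 listed spindle, kinetochore, cytokinesis, kinase and anaphase genes. TTTGAA lay within the 300 bases around the start in 50.5% of their 101 promoters, in 18.8% of 64 promoters of the replication lists and in 17.9% of all 32851 promoters. The form TTTAAA differed less, at 17.8%, 10.9% and 13.2% of these promoters in the same order. Among the listed genes whose share was higher by 50 points, TTTGAA lay in 73.7% of 19 promoters and TTTAAA in 26.3%. In 61 promoters of other such genes they lay in 19.7% and 11.5%. Of the 19 promoters, 4 are shown from 120 bases before to 30 bases from the start. They run 5′ to 3′ on the strand of the gene, with the TTTGAA match in capitals.

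Cenpa, chr5:30666766-30666915, plus strand: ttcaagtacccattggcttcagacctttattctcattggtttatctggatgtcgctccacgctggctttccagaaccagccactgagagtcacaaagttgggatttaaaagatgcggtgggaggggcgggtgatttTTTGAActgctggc

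Kif22, chr7:127042391-127042540, minus strand: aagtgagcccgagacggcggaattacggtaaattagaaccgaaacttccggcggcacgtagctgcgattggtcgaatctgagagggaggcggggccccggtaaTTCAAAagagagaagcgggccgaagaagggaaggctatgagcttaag

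Ube2c, chr2:164769809-164769958, plus strand: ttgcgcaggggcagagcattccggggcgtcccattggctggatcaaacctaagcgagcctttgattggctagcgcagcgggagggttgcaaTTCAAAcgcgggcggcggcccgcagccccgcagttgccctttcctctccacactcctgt

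Cdca8, chr4:124936888-124937037, minus strand: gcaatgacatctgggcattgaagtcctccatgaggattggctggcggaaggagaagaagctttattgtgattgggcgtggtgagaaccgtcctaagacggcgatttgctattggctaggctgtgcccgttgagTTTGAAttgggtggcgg

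In Cenpa and Cdca8 the match reads TTTGAA along the gene, and in Kif22 and Ube2c it lies on the other strand and reads TTCAAA. The CCAAT box, bound by NF-Y, was in 67.3% of the late promoters, 59.4% of the replication promoters and 37.4% of all. An E2F sequence, TTCCCGC, had the reverse order, in 8.91% of late promoters and 37.5% of replication promoters, with 4.6% of all. The promoters of Rad51ap1 and Msh6, which act in recombination and mismatch repair and were in 6 and 3 and in 4 and 2 cells, are shown for contrast, with TTCCCGC or its complement in capitals.

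Rad51ap1, chr6:126939558-126939707, minus strand: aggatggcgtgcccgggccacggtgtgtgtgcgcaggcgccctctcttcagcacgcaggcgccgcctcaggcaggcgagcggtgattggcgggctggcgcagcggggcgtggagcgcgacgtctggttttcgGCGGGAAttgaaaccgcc

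Msh6, chr17:87974930-87975079, plus strand: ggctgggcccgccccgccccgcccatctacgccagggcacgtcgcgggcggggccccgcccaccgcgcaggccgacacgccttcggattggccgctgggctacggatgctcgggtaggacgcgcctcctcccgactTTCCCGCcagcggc

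A match is a description of these letters and not of a bound site.

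Chromatin genes that are used from S phase into mitosis had nearly equal median sums in the classes. Condensin, cohesin and mitotic chromatin genes summed to 5069 to 24446 CPM in G2/M cells (median 12858) and to 3508 to 16727 CPM in earlier-phase cells (median 12812). In summed level 4 of 13 G2/M cells lay above every earlier-phase cell. Of 26 genes, 21 had a higher share in G2/M cells and 4 a lower one, and 19 of 25 log2 differences were positive. The median share difference was 13.8 points, and 25 points without library group 2 and 23.3 points without library group 3, and 0 of 25 genes differed by 50 points. Top2a, which untangles sister chromatids, was the exception by level, at 0.636 to 5268 CPM in G2/M cells (median 2205) and at most 1527 CPM in earlier-phase cells (median 48.0). Its sums were 1228, 2472, 2190, 3636, 3320 and 692 CPM in G2/M cells and 1.20, 57.0, 648, 0.40 and 266 CPM in earlier-phase cells and did not overlap (log2 difference 3.45 ± 1.5, edgeR adjusted p = 0.682). Smc2 and Smc4, the core of condensin, were in 12 and 5 and in 12 and 6 cells.

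Among 13 transcription factors of the late program, 10 had a higher share in G2/M cells, by a median of 15.4 points. Foxm1 was in 6 and 3 cells and Mybl2, which encodes B-Myb, in only 2 and 1. The factors were sparse, and their summed level overlapped, at 55.3 to 1516 CPM and 0.798 to 987 CPM.

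DNA synthesis genes were nearly even between the classes. Of 45 DNA synthesis and nucleotide genes found in at least 1 cell, 22 had a higher share and 23 a lower share, with a median of -1.54 points beside 7.69 points for all genes. Their summed level was 2080 to 19844 CPM in G2/M cells (median 5399) and 2771 to 19536 CPM in earlier-phase cells (median 7411), against a median of 1118 CPM in the cells that were not cycling. Both classes therefore held replication transcripts, and in edgeR 16 of 34 tested genes had a positive log2 difference. The median share difference over the 32 genes in at least 5 cells was -2.69 points and its sign turned without library group 1, 3 or 6 (1.52, 1.67 and 2.08 points). Pcna, the sliding clamp, was in 6 and 7 cells, Rrm2, a subunit of ribonucleotide reductase, in 7 and 6, and Tyms, thymidylate synthase, in 9 and 5.

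Origin licensing genes had 13 members with a higher and 10 with a lower share. Their mean sum was higher in G2/M cells in 4 of 5 library groups, although the median per cell was 2039 CPM in G2/M cells and 3366 CPM in earlier-phase cells. In edgeR 9 of 15 log2 differences were positive, with a median of 0.96, and 2 genes had an unadjusted p under 0.05, both higher. Mcm10, which helps to activate the helicase, was in 4 and 2 cells, with sums of 1105, 2136, 0, 0, 117 and 5.93 CPM against 0.40, 17.5, 8.83, 0 and 4.05 CPM (log2 difference 6.63 ± 2.71, edgeR adjusted p = 0.682). Mcm6 was in 4 and 5 cells. Mcm4, a subunit of the replicative helicase, was at 10 CPM in 3 G2/M cells (23.1%, interval 8.18 to 50.3) and in 7 earlier-phase cells (70%, 39.7 to 89.2). Mcm7, of the same helicase, had sums of 468, 1047, 21.7, 55.7, 124 and 21.3 CPM in G2/M cells and 1942, 1381, 1257, 0 and 518 CPM in earlier-phase cells, although it was present in 9 and 7 cells. Gmnn, an inhibitor of licensing, was in 6 G2/M cells and 0 earlier-phase cells. Replication-dependent histone genes, counted by symbol, summed to 10.4 to 1007 CPM in G2/M cells (median 429). In earlier-phase cells they summed to 0 to 2391 CPM (median 18.5). Their mean was higher in G2/M cells in only 2 of 5 library groups, and lower in library groups 2, 3 and 6. Near-identical copies make the single histone genes uncertain.

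Among G1 genes Ccnd2, the D cyclin of granule progenitors, was at 10 CPM in all 23 cells. Its sums were 2789, 1889, 3089, 5347, 1426 and 3569 CPM in G2/M cells and 3766, 6705, 1781, 5522 and 4931 CPM in earlier-phase cells, and they overlapped. Cdk4, its kinase, was in 12 and 8 cells. The inhibitors Cdkn1b, or p27, and Cdkn2d, or p19, were in 12 and 7 and in 8 and 1 cells, so that the second differed by over 50 points. E2F and cyclin E genes were sparse, with Ccne1 in 0 and 1 cells and Ccne2 in 2 and 3.

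**Figure D4:**
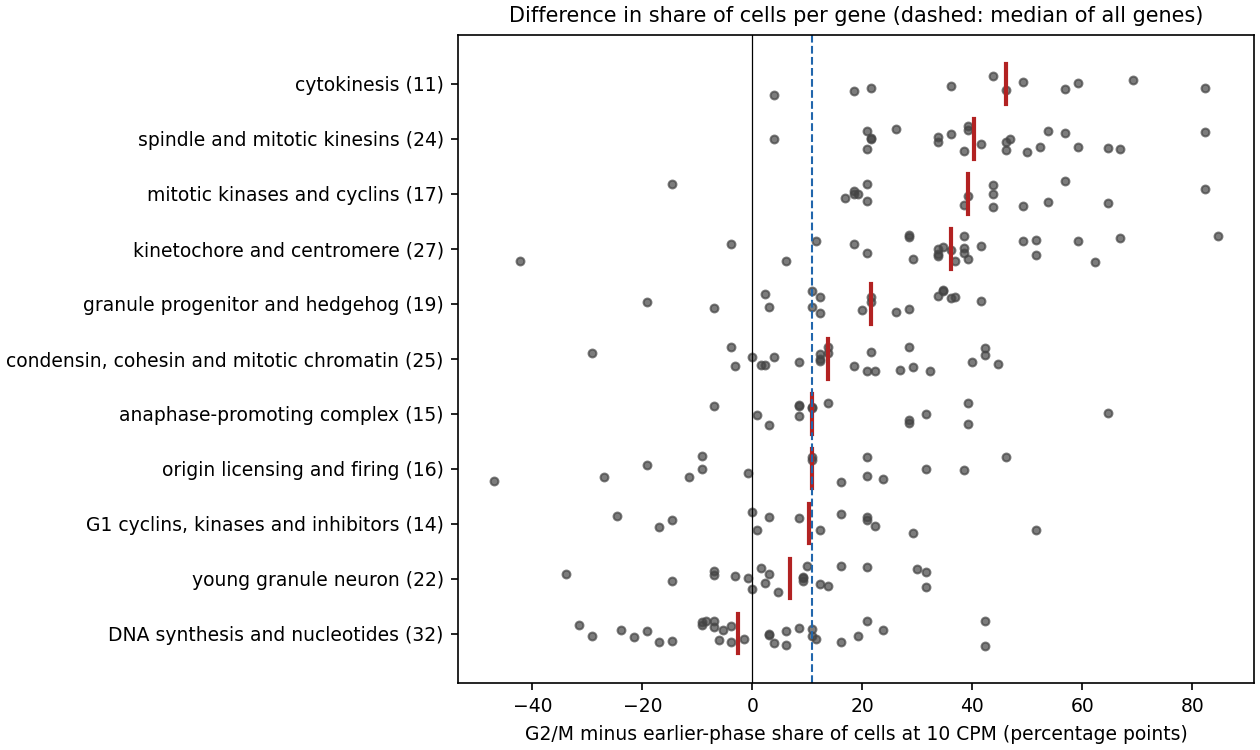
Difference in the share of cells at 10 CPM, G2/M minus earlier-phase cells in percentage points, for each listed gene at that level in at least 5 cells; numbers in parentheses are genes, red lines list medians and the dashed line the median of all genes, 10.8. Medians run from 46.2 points for cytokinesis to -2.69 points for DNA synthesis.

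Young granule neuron genes summed to 1830 to 12916 CPM in G2/M cells (median 7938) and 2860 to 19650 CPM in earlier-phase cells (median 7427), against a median of 20656 CPM in cells that were not cycling. Neurod1 and Dcx, genes of neuronal differentiation and migration, were in 13 and 9 and in 12 and 9 cells. Progenitor and hedgehog genes summed to 2773 to 11191 CPM (median 6661) and 45 to 25958 CPM (median 3652). Their mean sum was higher in G2/M cells in only 2 of 5 library groups. Of 30 progenitor genes, 24 had a higher share in G2/M cells and 6 a lower one. In edgeR only 6 of 18 log2 differences were positive, with a median of -0.78, so the measures differed in direction. Pax6 and Zic1, transcription factors of the granule lineage, were in 12 and 9 and in 12 and 8 cells. Atoh1, the factor that specifies progenitors, was at 10 CPM in only 3 and 1 cells.

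Of the Notch genes, Notch2 was at 10 CPM in 8 of 13 G2/M cells (61.5%, interval 35.5 to 82.3) and in 2 of 10 earlier-phase cells (20%, 5.67 to 51.0). Its sums were 101, 26.1, 13.3, 13.3, 60.1 and 42.5 CPM in G2/M cells and 1.20, 0, 4.41, 0 and 12.8 CPM in earlier-phase cells. They did not overlap, as was the case in the higher direction for 24 of the 4288 genes (0.56%) and in the lower direction for 2 (0.0466%), and the log2 difference was 3.56 with an unadjusted p of 0.124. Notch1, Jag1 and Hes1 were at 10 CPM in 2 and 0, 1 and 1, and 1 and 0 cells, too few to compare at this depth.

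The 24 genes with separate sums included Cenpa, Top2a and Notch2 among those listed. Others, named because of this rule and after their values were seen, were Tubg1, the gamma-tubulin that nucleates microtubules, Nr2f1, a nuclear receptor, and Gpc3, a glypican that binds hedgehog ligands. Tubg1 ran from 183 to 719 CPM in the G2/M sums and from 0 to 117 CPM in the earlier-phase sums. Nr2f1 was in 10 of 13 G2/M cells and 0 of 10 earlier-phase cells, but also in 26.3% of cells that were not cycling (log2 difference 9.45 ± 3.09, edgeR adjusted p = 0.560). The 2 genes with lower sums were Zranb1, a deubiquitinase, and Dhx9, an RNA helicase. Zranb1 had sums of 0.72, 94.2, 4.93, 181, 115 and 21.5 CPM in G2/M cells and 1118, 440, 200, 8405 and 265 CPM in earlier-phase cells (log2 difference -5.77 ± 1.5, edgeR adjusted p = 0.560). The count of cells with Zranb1 at 10 CPM was nearly even, at 8 and 7. Gene overlaps bear on it, as Zranb1 shares sequence positions with Fgfr2 and Gm15718 on the other strand and the strand setting of the counts is not given in the sources used here.

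The 3 genes whose share was lower by 50 points, named after their values were seen, were Dleu2, Ddx50 and Fnbp1, in 5 and 9, 0 and 5, and 0 and 5 cells, of which none is a cell cycle gene of the lists. They were present in 17.1%, 22.4% and 40.8% of cells that were not cycling.

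The G2/M cells varied among themselves with the gene that placed them in the class, which is given as a description. The 6 cells with both genes held 7072 to 20276 CPM of spindle genes (median 15416) and the 2 cells with Cdc20 alone 9699 and 14911 CPM, whereas the 5 cells with Ccnb1 alone held 2182 to 10347 CPM (median 3384). The kinetochore sums ordered the same way, with medians of 15575, 13383 and 4678 CPM. DNA synthesis genes had medians of 4919, 7022 and 9607 CPM. The cells with Ccnb1 alone included the G2/M cells named above for glial genes and the single G2/M cell of library group 6. That single cell had the lowest Mki67 of the class and no count of Kif22, Anln or Ube2c.

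The 7 cells left out had medians between those of the classes for spindle, kinetochore, cytokinesis, transcription factor and progenitor genes, and outside them for kinase, anaphase, condensin, licensing, DNA synthesis, G1 and young neuron genes. Their medians were 7400 CPM for spindle genes, 6276 for kinetochore genes and 2608 for cytokinesis genes, and 4 of 7 exceeded every earlier-phase cell in spindle genes. Their DNA synthesis median was 8870 CPM.

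Within library groups, the mean spindle sum was 9148, 10023, 13233 and 9508 CPM in G2/M cells of library groups 1, 2, 3 and 5, against 878, 1733, 3853 and 757 CPM in earlier-phase cells. In library group 6 it was 2182 against 2334 CPM. The kinetochore sum was likewise higher in the former groups and was 3608 against 4839 CPM in library group 6. That group contributed 1 G2/M cell and 2 earlier-phase cells, and library group 4 had no earlier-phase cell.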

How the data were processed

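Single cells of the postnatal day 7 cerebellum were sequenced as 1 sample each. The authors aligned reads with STAR 2.4.1d to mm10 and deposited raw read counts per gene from HTSeq 0.6.1, in 1 table of 15973 genes, each with a count in at least 3 of 109 cells. The annotation and the strand setting are not given in the sources used here. Reads carry no molecular identifiers named in those sources. The Wilson intervals treat the cells of a class as independent and do not cover the spread between library groups.

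CPM was 1000000 times the count over the column total. Counts of each class were summed per library group, giving sums of 2496829 to 13795812 counts, and tested with edgeR 4.0.16 (filterByExpr, TMM, robust quasi-likelihood fit, Benjamini-Hochberg adjusted p under 0.01). Ccnb1, Cdc20 and Mki67 were left out. DESeq2 1.42.0 was an alternative. Depth was compared by exact permutation over library group means. The edgeR fit was run on simulated counts with a smaller spread between sums than in these data. That run cannot show what the test would find at the spread seen here.

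The members and the gene lists were chosen with earlier results of these data known. Listed genes were named in the order of their roles, and beyond the lists up to 10 genes in each direction with the smallest p among those alike in direction in every library group with both classes. The share of cells at 10 CPM, its limits and the printed promoter stretch were chosen after the values were seen, and several promoter windows were looked at before the 300 bases were kept. Coordinates of genes are from GENCODE vM21 (GRCm38) and promoters from RefSeq.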

Additional observations from a re-analysis of the deposited data

Results flagged for a closer look

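In all, 17 sets of values were examined for a value far from the others. These were gene list sums, total counts and detected genes of the 10 earlier-phase cells, and library group means of depth. Of the 17 sets, 3 had such a value, each the highest earlier-phase cell of a gene list. The sets share cells, and the number that chance would give was not tested. For mitotic kinases and cyclins the highest cell held 17211 CPM and the next 5056 CPM, and Ttk (6797 CPM) and Bub1b (5837 CPM) made up most of it. For cytokinesis another cell of library group 3 held 2704 CPM against 719 CPM in the next, of which 2464 CPM were Ect2. For progenitor and hedgehog genes the cell of library group 1 held 25958 CPM against 12150 CPM, of which 13713 CPM were Sfrp1, a secreted Wnt antagonist.

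Among the 76 cells below the Mki67 threshold, which the comparison does not use, 1 cell of library group 3 held Ccnb1 at 172 CPM with Mki67 at 0.408 CPM. Its spindle genes summed to 1052 CPM, its kinetochore genes to 20.6 CPM and its cytokinesis genes to 78.4 CPM.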

How the results depend on the processing

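The main test called 0 genes, as did every edgeR alternative at an adjusted p under 0.01, whereas DESeq2 called 316 higher and 104 lower. At an adjusted p under 0.05 the edgeR fits called at most 2 genes. Among list medians relative to all genes, those for kinase, anaphase, licensing, DNA synthesis, G1, progenitor and young neuron genes changed sign in some alternatives. Those for spindle, kinetochore, cytokinesis and condensin genes did not. Genes whose sums lay above numbered 24 and those below 2. They were 159 and 18 with both Ccnb1 and Cdc20 required, 114 and 70 with sums of at least 2 cells, 15 above without cells with astroglial genes, and 35 to 120 and 3 to 18 when each library group was left out in turn, the most above without library group 6 and the most below without library group 5. Of depth and detected genes, the log2 difference in detected genes ranged from 0.17 to 0.27 with a library group left out, and it was 0.22 without library group 1 and 0.17 without library group 5 (exact permutation p = 0.0635 in each). Median share differences moved to 20.8 points for kinases at 50 CPM, to 21.5 points for anaphase regulators at 1 count and 10 to 20.5 with a library group left out (highest without library group 2), to 66.7 for spindle genes and 30 for condensin genes with both genes required, and to 2.31 for progenitor genes at 1 count.

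Library groups did not pair the sums: same-group correlations were 0.034, -0.002, 0.021, -0.016 and 0.031. With the library group as a replicate block edgeR had 113 higher and 24 lower genes at an unadjusted p under 0.05 and the median of all genes was 0.94. List medians relative to that of all genes were, in the main fit, 0.34 for kinases and -0.04 for anaphase genes. They were 2.92 for spindle, 2.67 for kinetochore, 0.87 for licensing, -0.88 for progenitor and -0.64 for G1 genes. With the block they were 4.90 for kinases, 5.92 for spindle and 5.70 for kinetochore genes. With each cell as a unit and the block they were 3.85 for kinases, 2.4 for anaphase, 5.70 for kinetochore and -1.88 for licensing genes. With a library group left out they ran from 2.25 to 4.74 for spindle and from 3.70 to 8.30 for cytokinesis genes, highest without library group 3 in both. With detected genes as a covariate, where the median of all genes was -0.94, they were 1.26 for anaphase, 2.14 for licensing and 0.90 for progenitor genes. Sums of at least 2 cells gave -1.04 for licensing and 0.81 for progenitor genes, both genes required gave -1.31 for licensing, and DESeq2 gave 0.21 for G1 genes. The causes were not tested. With DESeq2's size factors in edgeR the median of all genes was -0.35.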
